A study of Mus musculus with 14 samples.

Results

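The genes described here are 10 classical response genes of the cAMP-CREB pathway: Nfil3, Gadd45b, Sik1, Nr4a1, Nr4a2, Nr4a3, Pde4b, Pde4d, Dusp1 and Rgs2. They were chosen by name and were found among 40853 gene identifiers in each of 14 libraries. All 10 were among the 12927 genes tested, which averaged 1 TPM or more across the libraries (TPM is a level per transcript length, scaled to the same total in each library).

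RNA sequencing was done on αTN4-1, a mouse lens epithelial line made from lens cells transformed by a viral T antigen, in 7 stable lines under neomycin selection. One line was labelled Vector. The other 6 were labelled for a CREB construct: WT-CREB, KCREB and R314A-CREB, and the same 3 proteins with S133A added (S133A-KCREB for the K protein, S133A/R314A-CREB and, with no other change, S133A-CREB). With S133A the phosphorylation site of protein kinase A is lost. R314A is a change in the bZIP domain (basic region and leucine zipper) known to impair binding of CRTC coactivators. KCREB, a dominant negative, has a change in the bZIP domain that abolishes DNA binding. Every line was sequenced as 1 control culture and 1 culture treated with TGFβ (20 ng/mL, 24 h) in serum-free medium. No line and treatment was repeated, so the lines are the replicates and p-values describe the spread between lines. The labels name neither the promoter that drives the constructs nor whether a line is 1 clone. They leave unsaid if serum was withheld from control cells as well, and TGFβ therefore cannot be told apart from serum withdrawal. This touches every TGFβ difference below, since several of the 10 genes are known to respond to serum.

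Cyclic AMP activates protein kinase A, which phosphorylates CREB bound to cAMP response elements (CREs). Phosphorylated CREB recruits the coactivators CBP and p300, and dephosphorylated CRTC proteins join at the bZIP domain. The genes that respond fall into transcription regulators (Nr4a1, Nr4a2, Nr4a3 and Nfil3), brakes on signalling that act back on the pathway or its neighbours (Pde4b, Pde4d, Sik1, Rgs2 and Dusp1) and a stress sensor (Gadd45b). Many are immediate early genes, whose RNA rises and falls quickly after a stimulus. In the lens epithelium TGFβ is known for driving the change towards fibroblast-like cells that accompanies fibrotic cataract.

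The labels were checked on Creb1 and on marker genes. Creb1 stood at 20.8 TPM in Vector control cells, at 25.8 to 38.3 TPM in the 4 libraries of the lines labelled with K, and at 4.43 to 11.6 TPM in the 8 libraries of the other CREB lines, which goes against the labels of those lines. The species of the constructs is not stated in the labels, and lines are named only as labelled. The known TGFβ targets Ccn2 (log2 difference 2.198 ± 0.237), Skil (1.19 ± 0.14) and Smad7 (0.93 ± 0.09) rose with TGFβ in limma (adjusted p = 2.68e-04, 3.79e-04 and 1.93e-04). Of 12 lens epithelium markers, 9 reached a mean of 1 TPM, whereas Foxe3, Gja1 and Cdh1 stayed under 0.5 TPM in all 14 libraries. In the deposited values 1 FPKM (reads per length and depth) equalled a coverage of 5.05 to 10.1 per base, a guide to relative depth.

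Promoters were searched for the element that CREB binds. RefSeq start sites (GRCm38.p6) were found for 9 of the 10 genes, with 12 windows of the 250 bases before a start. The full CRE, TGACGTCA, occurred in 1 gene, Dusp1, 143 bases before the start. The short CRE, TGACG on either strand, which also lies inside the full element, occurred in windows of 7 genes and in none of Gadd45b and Pde4d. Among all 32851 RefSeq windows of the same length, 1.55% held the full and 17.8% the short element, and 0.137% held at least 4 short ones, as the windows of Nr4a1, Nr4a2 and Nr4a3 did. Counted by window in the same way, the 12 windows of these genes gave 8.33%, 58.3% and 25.0%. The genes were picked as CREB response genes, so the count describes the choice, and a match is not a measured binding site. The windows below are shown because these genes either changed with TGFβ or, for Nr4a2, had the smallest p for S133A among the 10 genes. They are written 5′ to 3′ on the gene's strand in lower case, with matches to the short or full CRE in capitals. They lie at chr15:101266596-101266845 (Nr4a1, plus strand), chr2:57124004-57124253 (Nr4a2, minus), chr17:26508473-26508722 (Dusp1, minus), chr13:52981040-52981289 (Nfil3, minus), chr10:80929841-80930090 (Gadd45b, plus), chr1:144004150-144004399 (Rgs2, minus) and chr4:102421305-102421554 (Pde4b, plus, the only 1 of its 4 windows with a match).
Nr4a1: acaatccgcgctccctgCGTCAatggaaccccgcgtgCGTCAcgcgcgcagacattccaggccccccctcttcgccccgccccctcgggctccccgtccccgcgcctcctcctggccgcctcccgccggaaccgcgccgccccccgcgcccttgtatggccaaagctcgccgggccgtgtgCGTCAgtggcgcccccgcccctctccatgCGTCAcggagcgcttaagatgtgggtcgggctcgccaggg
Nr4a2: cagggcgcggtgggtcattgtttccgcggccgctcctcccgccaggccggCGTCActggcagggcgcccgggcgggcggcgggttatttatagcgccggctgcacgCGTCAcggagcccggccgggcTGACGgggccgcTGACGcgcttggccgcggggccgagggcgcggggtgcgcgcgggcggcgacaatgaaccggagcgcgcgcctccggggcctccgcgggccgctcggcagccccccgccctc
Dusp1: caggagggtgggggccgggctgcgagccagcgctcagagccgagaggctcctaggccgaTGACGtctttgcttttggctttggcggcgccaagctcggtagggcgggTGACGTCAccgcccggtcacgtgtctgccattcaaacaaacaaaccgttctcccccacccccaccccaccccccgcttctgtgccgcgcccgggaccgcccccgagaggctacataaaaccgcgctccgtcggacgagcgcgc
Nfil3: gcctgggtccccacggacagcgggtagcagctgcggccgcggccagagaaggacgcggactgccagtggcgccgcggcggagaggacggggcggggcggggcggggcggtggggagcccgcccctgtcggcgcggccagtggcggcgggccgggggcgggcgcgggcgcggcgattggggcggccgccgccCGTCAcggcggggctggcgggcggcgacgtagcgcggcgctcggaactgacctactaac
Gadd45b: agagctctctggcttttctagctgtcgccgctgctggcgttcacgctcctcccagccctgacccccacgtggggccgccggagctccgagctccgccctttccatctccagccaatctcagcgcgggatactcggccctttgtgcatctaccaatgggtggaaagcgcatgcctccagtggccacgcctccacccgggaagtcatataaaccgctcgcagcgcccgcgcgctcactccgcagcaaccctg
Rgs2: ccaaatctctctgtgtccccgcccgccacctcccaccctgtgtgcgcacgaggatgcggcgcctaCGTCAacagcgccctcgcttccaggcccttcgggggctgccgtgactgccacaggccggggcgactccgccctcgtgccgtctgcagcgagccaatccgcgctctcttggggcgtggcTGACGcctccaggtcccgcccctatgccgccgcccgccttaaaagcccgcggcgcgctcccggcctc
Pde4b: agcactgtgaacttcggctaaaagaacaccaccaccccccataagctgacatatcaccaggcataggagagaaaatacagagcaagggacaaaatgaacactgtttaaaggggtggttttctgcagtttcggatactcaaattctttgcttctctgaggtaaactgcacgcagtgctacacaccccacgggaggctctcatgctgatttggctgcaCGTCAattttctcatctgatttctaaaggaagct

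In these windows Nr4a1 carried short CREs at 233, 213, 69 and 40 bases before the start and Nr4a2 at 200, 144, 123 and 111. Dusp1 had a further short element at 191 bases. Nfil3 had 1 at 59 bases, Rgs2 had them at 185 and 67 bases, and Pde4b had 1 at 34 bases.

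TGFβ-treated cells were first compared with control cells within each of the 7 lines. Of the 10 genes, Nfil3, Gadd45b and Dusp1 rose, Nr4a1, Rgs2 and Pde4b fell, and Nr4a2, Nr4a3, Sik1 and Pde4d did not pass (limma on log2(TPM + 1), blocked by line, at an adjusted p under 0.05 over all genes). With 3 of 10 up and 3 of 10 down, the shares were close to those of all genes tested, of which 24.1% rose, 21.4% fell and 45.4% were called in either direction. The median difference of the 10 genes was -0.045 (log2), beside 0.017 for all genes tested. Nfil3 and Gadd45b were higher with TGFβ in all 7 lines, as were 18.5% of all genes tested. Nr4a1, Rgs2 and Pde4b were lower in all 7 lines, as were 15.9% of all genes tested. Markers of cell types moved as well. Of the lens epithelium markers 6 of 9 tested fell and 1 rose (summed 643 to 2537 TPM in control and 574 to 1285 TPM with TGFβ), and of the fibroblast markers 2 of 3 rose (10.2 to 152 and 22.5 to 199 TPM). Of 4 macrophage markers 3 rose and Lyz2 fell (29.5 to 93.2 and 18.6 to 52.4 TPM, with Adgre1, Cx3cr1 and C1qa under 0.5 TPM throughout), and 1 of 2 melanocyte markers, Mitf, rose (5.02 to 12.2 and 7.80 to 25.0 TPM, with Tyr, Dct, Rpe65 and Mlana under 0.5 TPM throughout). No endothelial marker reached a mean of 1 TPM. The mitochondrial share of TPM was lower with TGFβ in 6 of 7 lines (5.75% to 8.64% with TGFβ, 5.59% to 10.8% in control), and after removal of the mitochondrially encoded genes and rescaling, 2 members were called higher and 3 lower, with Dusp1 no longer called. The part of the marker genes in the results below was not tested, and a smaller share of a cell type cannot be told apart from less RNA per cell.

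**Figure D1:**
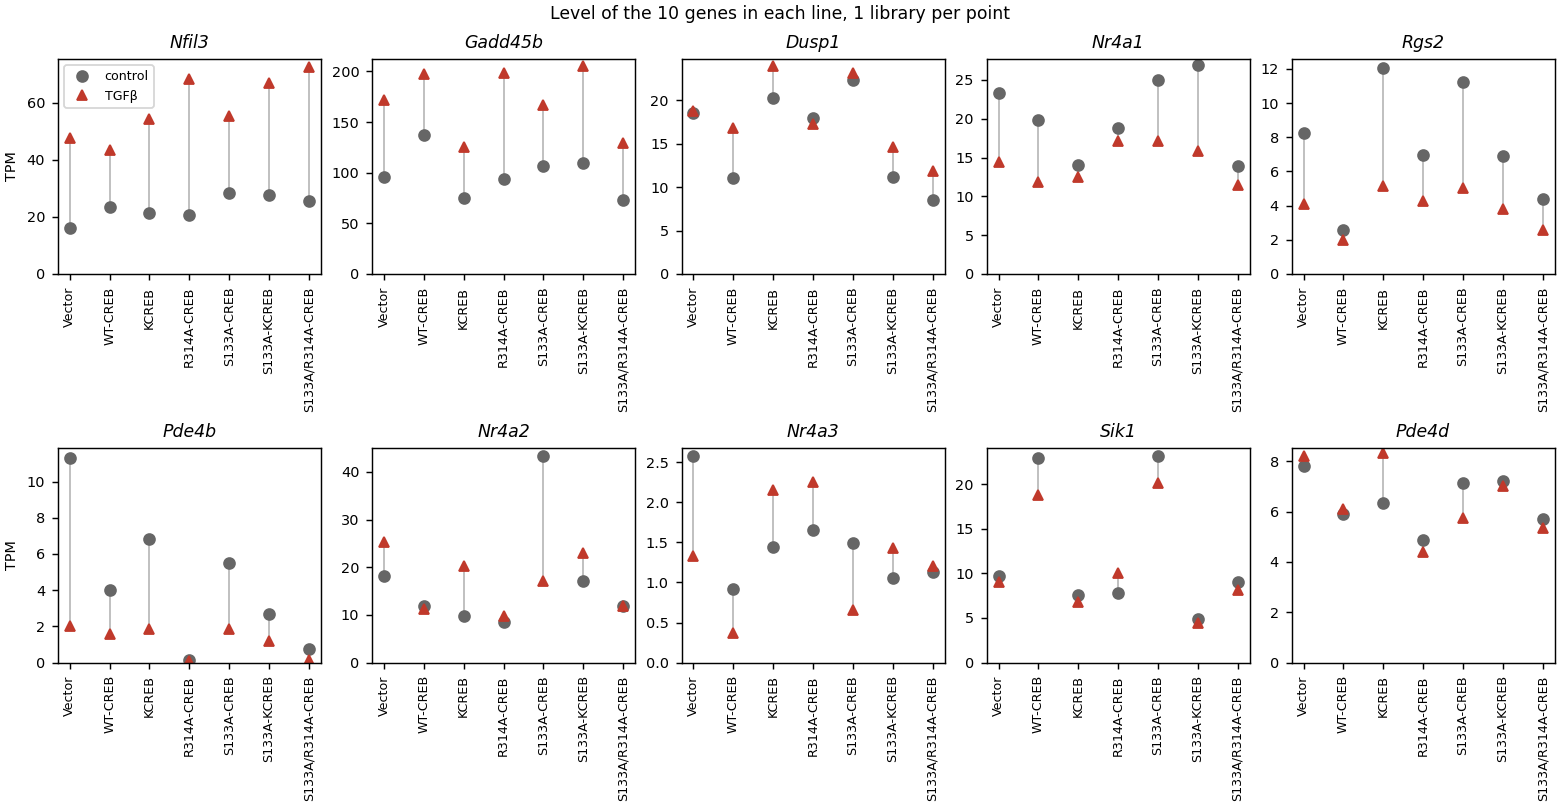
TPM (y axis, linear from 0) of the 10 genes in each of the 7 lines (x axis), with 1 control library (grey circle) and 1 TGFβ library (red triangle) per line joined by a line. Nfil3 and Gadd45b lie higher with TGFβ in all 7 lines (18.5% of all genes tested do). Nr4a1, Rgs2 and Pde4b lie lower in all 7 (15.9% of all genes tested do). Sik1 is highest in the WT-CREB and S133A-CREB lines under both treatments.

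Among the transcription regulators, Nfil3 moved most. It encodes a bZIP repressor of the circadian and cytokine response (chromosome 13, 53121245 to 53136914, GRCm39, minus strand). Its control levels were 16.2 TPM in Vector, 23.4 in WT-CREB, 21.5 in KCREB, 20.7 in R314A-CREB, 28.4 in S133A-CREB, 27.6 in S133A-KCREB and 25.5 in S133A/R314A-CREB. With TGFβ they were, in the same order, 47.6, 43.5, 54.4, 68.3, 55.4, 66.9 and 72.5 TPM. The lowest TGFβ library lay above the highest control library, so the treatments did not overlap. The share of all genes without such overlap was not counted. Within lines the ratio ran from 1.86 in WT-CREB to 3.30 in R314A-CREB, and the mean log2 difference was 1.29 ± 0.10 (SE, n = 7 lines, 95% CI 1.07 to 1.502, limma adjusted p = 7.36e-05).

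Nr4a1, the orphan nuclear receptor NUR77 (chromosome 15, 101151788 to 101172676), went the other way. Control libraries held 13.9 to 26.9 TPM with a median of 19.9, and TGFβ libraries 11.5 to 17.2 TPM with a median of 14.5. The ranges overlapped across lines, but the level was lower with TGFβ in 7 of 7 lines, with ratios of 0.590 to 0.911. The log2 difference was -0.45 ± 0.09 (SE, n = 7 lines, 95% CI -0.65 to -0.25, limma adjusted p = 0.00369). KCREB and R314A-CREB had the smallest drops within a line, at -0.15 and -0.13.

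The relatives of Nr4a1 had no common direction. Nr4a2, the receptor NURR1 (chromosome 2, 56996845 to 57014018), was higher with TGFβ in 5 lines and lower in 2, and its mean log2 difference was 0.10 ± 0.22 (95% CI -0.39 to 0.59, limma adjusted p = 0.735). Nr4a3, the receptor NOR1 (chromosome 4, 48045098 to 48086446), had the lowest median of the 10 genes in control cells, at 0.922 to 2.57 TPM in control and 0.369 to 2.25 TPM with TGFβ. It was higher in 4 lines and lower in 3 (-0.11 ± 0.15, 95% CI -0.45 to 0.24, limma adjusted p = 0.592). Of the 3 receptor genes, whose windows each held 4 short CREs, 1 was called.

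Of the 2 genes that act on cAMP itself, Pde4b fell and Pde4d did not pass. Pde4b and Pde4d encode phosphodiesterases that break down cAMP. Pde4b (chromosome 4, 101944529 to 102464472) stood at 11.3 TPM in Vector control cells and at 2.03 TPM with TGFβ. In the CREB lines it went from 4.03 to 1.59 TPM in WT-CREB, 6.82 to 1.84 in KCREB, 5.48 to 1.86 in S133A-CREB and 2.68 to 1.17 in S133A-KCREB. The lines with R314A started lowest, at 0.129 TPM in R314A-CREB and 0.737 in S133A/R314A-CREB, and ended at 0.0907 and 0.156 TPM. The level was thus lower with TGFβ in 7 of 7 lines, by a mean of -1.003 ± 0.204 (log2, SE, n = 7 lines, 95% CI -1.46 to -0.54, limma adjusted p = 0.00390). Both R314A lines lay near the floor, and the difference in R314A-CREB was only -0.05 (log2), which cannot be told apart from no change. Pde4d (chromosome 13, 108790711 to 110092503) held 4.85 to 7.82 TPM in control and 4.41 to 8.34 TPM with TGFβ, and its difference was -0.0048 ± 0.0794 (log2, SE, 95% CI -0.18 to 0.17, limma adjusted p = 0.966). The interval of Pde4d excludes a change of the size seen in Pde4b. Both genes have many isoforms. Their deposited coverage was 0.122 and 0.123 per FPKM, against 6.70 for the short genes Gadd45b, Dusp1 and Rgs2, and the part of isoform assignment in their levels was not tested. Predicted genes that overlap them on the opposite strand reached at most 0.103 TPM.

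Rgs2, which shortens signalling of G protein-coupled receptors through Gq (chromosome 1, 143875076 to 143879887), was lower with TGFβ in all 7 lines. Control levels ran from 2.59 TPM in WT-CREB to 12.1 in KCREB, with a median of 6.96, and TGFβ levels from 1.98 to 5.13 TPM, with a median of 4.07. The ratio within lines was 0.425 to 0.764, and the WT-CREB line, which had the lowest control level, changed least (-0.27). The mean log2 difference was -0.74 ± 0.10 (SE, n = 7 lines, 95% CI -0.97 to -0.50, limma adjusted p = 7.42e-04).

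Dusp1 encodes a nuclear phosphatase that switches off MAP kinases (chromosome 17, 26724565 to 26727446). Its control levels were 8.57 to 22.4 TPM and its TGFβ levels 11.8 to 24.0 TPM, with medians of 18.0 and 17.3 that overlap widely. It was higher with TGFβ in 6 of 7 lines, with the largest differences in WT-CREB (0.56), S133A/R314A-CREB (0.42) and S133A-KCREB (0.37) and a value of -0.06 in R314A-CREB. The mean of 0.23 ± 0.08 (log2, SE, 95% CI 0.04 to 0.41) passed by a small margin (limma adjusted p = 0.0487). The call was lost in 12 of 19 alternatives. Among them were the fits without the WT-CREB line (adjusted p = 0.110), the KCREB line (0.0878), the S133A-CREB line (0.0515), the S133A-KCREB line (0.114) or the S133A/R314A-CREB line (0.119).

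Sik1, a salt-inducible kinase that keeps CRTC coactivators in the cytoplasm (chromosome 17, 32063222 to 32074808), was lower with TGFβ in 6 of 7 lines by little. Its log2 difference was -0.09 ± 0.08 (SE, 95% CI -0.25 to 0.08, limma adjusted p = 0.374). The line that went the other way was R314A-CREB, at 0.32. An effect of TGFβ on Sik1 as large as that on Gadd45b lies outside this interval.

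Gadd45b, a stress sensor that binds and activates the kinase MTK1 (chromosome 10, 80765925 to 80768038), was the most abundant of the 10 genes. Control cells held 73.1 to 138 TPM with a median of 95.3, and TGFβ-treated cells 125 to 206 TPM with a median of 172. Only the control library of WT-CREB exceeded the lowest TGFβ libraries, those of KCREB and S133A/R314A-CREB. It rose in 7 of 7 lines, with ratios of 1.44 to 2.12 and a mean log2 difference of 0.79 ± 0.06 (SE, n = 7 lines, 95% CI 0.65 to 0.93, limma adjusted p = 8.87e-05). Without the line as a block, Nfil3 and Gadd45b remained called, whereas Nr4a1 (adjusted p = 0.0931), Rgs2 (0.104), Pde4b (0.202) and Dusp1 (0.560) did not.

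**Figure D2:**
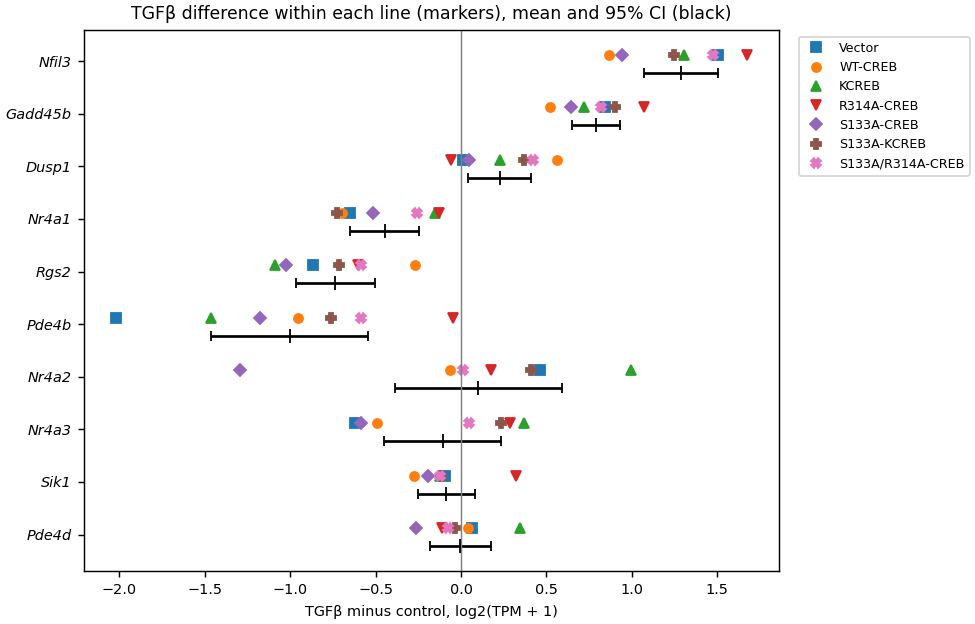
TGFβ minus control difference in log2(TPM + 1) (x axis) of the 10 genes (y axis), with 1 coloured marker per line and, in black, the mean over 7 lines with its 95% CI from limma. Nfil3 (1.29) and Gadd45b (0.79) lie to the right of 0 in all lines, Pde4b has the widest spread among the genes that fell, and the markers of Nr4a2 run from -1.30 to 1.00.

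Other genes of the pathway were taken from lists named by function. Beside the count of each list stand the shares of all genes tested, of which 24.1% rose and 21.4% fell. Of 31 other cAMP-CREB target genes, 24 were tested, 7 rose and 5 fell with TGFβ (limma, adjusted p under 0.05), with a median log2 difference of 0.18. Sgk1, a kinase that regulates ion transport, rose from a median of 136 to 319 TPM (1.38 ± 0.19), and Junb, an AP-1 subunit, from 180 to 319 TPM (0.78 ± 0.12). The survival gene Bcl2 fell from 17.1 to 10.6 TPM (-0.56 ± 0.06). Among 15 tested relatives of the 10 genes, 4 rose and 5 fell, with a median of 0.02. Dbp and Tef, bZIP activators that bind the same sites as Nfil3, fell by 1.34 ± 0.15 and 0.55 ± 0.08, and Gadd45g rose by 0.81 ± 0.10. Of 2 relatives singled out after their values were seen, Sik2 changed by -0.24 ± 0.04 and Sik3 by -0.28 ± 0.05, both called.

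In the cascade upstream of CREB, 4 of 16 tested genes rose and 4 fell, with a median of -0.02. Those that rose were Adcy7 (0.41 ± 0.09), Pde8a (0.40 ± 0.12), Pkig (0.31 ± 0.08) and Prkar1a (0.14 ± 0.04). The 3 genes with the smallest p were lower with TGFβ. Prkar2b, a regulatory subunit of protein kinase A, changed by -0.43 ± 0.04, the anchoring protein gene Akap12 by -0.62 ± 0.07 and the catalytic subunit gene Prkaca by -0.25 ± 0.05. Of the CREB subfamily and its coactivators, 2 of 8 rose and none fell (limma, adjusted p under 0.05). These were Crem, with 0.54 ± 0.12, and Atf1, with 0.15 ± 0.04, whereas the coactivator gene Ep300 stood at 0.08 ± 0.05 (limma adjusted p = 0.198).

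The construct comparisons asked whether the S133 state or the bZIP state of the line went with the level of these genes. Each line entered as the mean of its control and TGFβ libraries, in a model with both states. For S133A (3 lines against 3), for K and for R314A (2 against 2 each), limma called none of the 10 genes, and 0% of all genes tested. At an unadjusted p under 0.05 there were 1, 1 and 2 of the 10 genes. Of all genes tested, 5.83%, 10.1% and 6.35% had such a p. With so few lines a missing call is no sign that lines were alike, and the intervals below give the sizes that the fit allows. In simulated data these fits recovered 0% of planted 4-fold changes. The noise there was set by each gene's own fitted spread, itself estimated from few lines, so the true recovery may differ. No conclusion is drawn from the lack of calls.

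**Figure D3:**
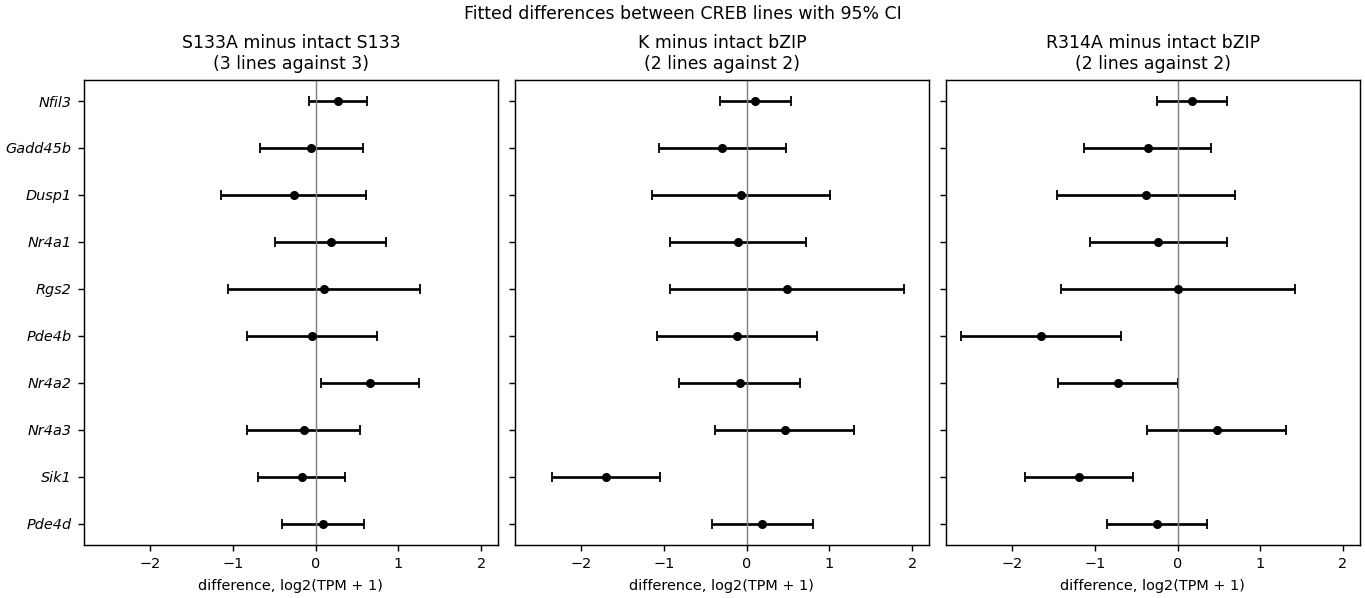
Fitted difference in log2(TPM + 1) (x axis) of the 10 genes (y axis) between CREB lines for S133A, K and R314A, each point with its 95% CI from limma. The intervals of Sik1 for K and R314A and of Pde4b for R314A lie below 0, and that of Nr4a2 for S133A lies above 0, but none passed over all genes.

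Sik1 separated the lines by bZIP state. In control cells it stood at 22.9 TPM in WT-CREB and 23.1 in S133A-CREB, the lines with an intact bZIP domain. It stood at 7.52 TPM in KCREB, 4.91 in S133A-KCREB, 7.84 in R314A-CREB and 8.996 in S133A/R314A-CREB, and at 9.73 in Vector. With TGFβ the order was the same at its upper end, with 18.8 and 20.1 TPM in WT-CREB and S133A-CREB, 6.84 and 4.45 in the K lines, 10.0 and 8.18 in the R314A lines and 9.05 in Vector. The 4 libraries with an intact bZIP domain lay above all 10 others, and the R314A lines, the KCREB line and Vector lay close to each other. Those 4 libraries come from only 2 lines, and the share of all genes that separate in this way was not counted. K differed from intact by -1.70 ± 0.25 (log2, SE, 95% CI -2.35 to -1.05, limma adjusted p = 0.273) and R314A by -1.19 ± 0.25 (95% CI -1.84 to -0.54, limma adjusted p = 0.700). S133A made a difference of -0.17 ± 0.21 (95% CI -0.70 to 0.36). With all 12 libraries of the CREB lines and the line as a random block, the K difference passed (limma adjusted p = 0.0127) and the R314A difference did not. That fit counts both libraries of a line as partly independent, with a single correlation of 0.652 for all genes. For K it called 41 of all genes higher and 100 lower, where the fit on line means called 0. Sik1 was not alone in separating these libraries. Singled out after its values were seen, the target Egr2 held 9.44 to 22.5 TPM with an intact bZIP domain and at most 5.80 TPM elsewhere. The fibroblast marker Pdgfra held 23.3 to 27.5 TPM and at most 16.7 TPM. Of 24 other targets tested, 6 had an unadjusted limma p under 0.05 for K (10.1% of all genes) and 3 for R314A (6.35%), with none called.

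Marker sums were compared between the same groups of lines. The 6 fibroblast markers summed to 92.1 to 199 TPM in the 4 libraries with an intact bZIP domain, 11.8 to 24.2 TPM in the K lines, 14.9 to 90.3 TPM in the R314A lines and 10.2 to 32.7 TPM in Vector, with Dcn, Lum and Thy1 under 0.5 TPM in all libraries. The 12 lens epithelium markers summed to 574 to 913 TPM in the libraries with an intact bZIP domain, 903 to 2537 TPM in the K lines, 771 to 1485 TPM in the R314A lines and 1170 to 2401 TPM in Vector. With both treatments pooled, the fibroblast sums of the intact lines lay just above the highest R314A library, and their lens sums overlapped those of the K and R314A lines. Within each treatment, however, the lens sums of both intact lines lay below those of all other lines, so these sums separated the lines as Sik1 did. The part of the marker genes in the Sik1 difference was not tested.

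Pde4b was lowest in both lines with R314A. Its 4 libraries there, 0.0907 to 0.737 TPM, did not overlap the 4 libraries with an intact bZIP domain, 1.59 to 5.48 TPM, or the 4 with K, 1.17 to 6.82 TPM. R314A differed from intact by -1.65 ± 0.38 (log2, SE, 95% CI -2.62 to -0.69, limma adjusted p = 0.719). K differed by -0.11 ± 0.38 (95% CI -1.08 to 0.85) and S133A by -0.04 ± 0.31 (95% CI -0.83 to 0.75). At a pseudocount of 0.1 the R314A difference was -3.25, since this scale compresses low values less. Pde4d was also lower in the R314A lines, with 4.41 to 5.69 TPM against 5.76 to 7.12 TPM, a difference of -0.25 ± 0.24 (95% CI -0.86 to 0.36). For both genes these are 2 lines against 2, and the share of all genes without overlap was not counted.

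**Figure D4:**
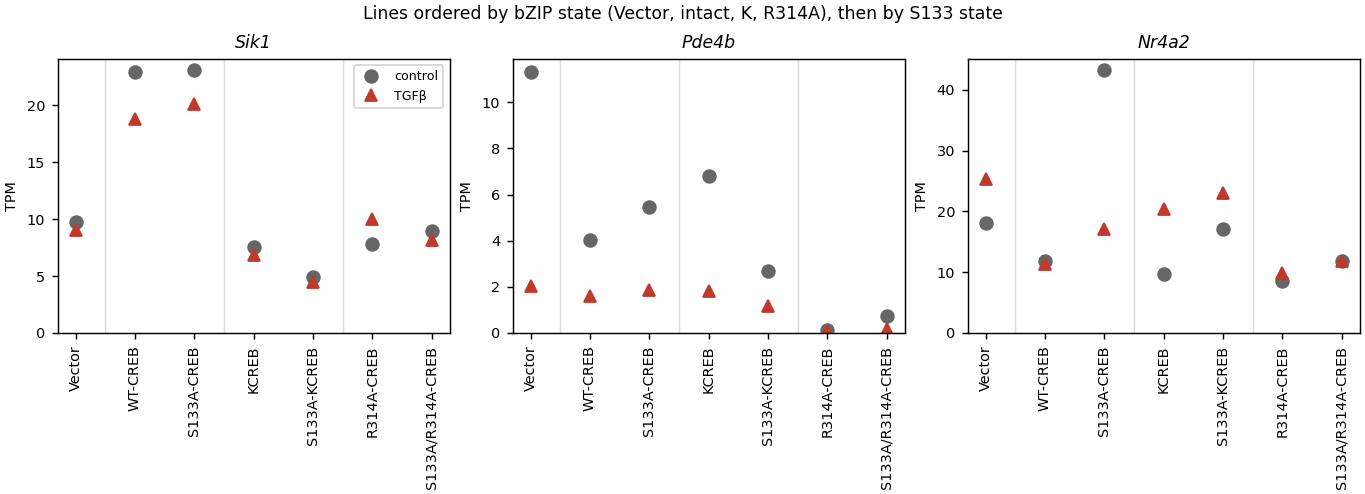
TPM (y axis, linear from 0) of Sik1, Pde4b and Nr4a2 in the 7 lines (x axis), ordered by bZIP state and then by S133 state, with control libraries as grey circles and TGFβ libraries as red triangles. Sik1 lies at 18.8 to 23.1 TPM in the lines with an intact bZIP domain and at most at 10.0 TPM elsewhere, Pde4b lies under 1 TPM in both R314A lines, and Nr4a2 reaches 43.3 TPM in 1 library.

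Nr4a2 was the only member with an unadjusted p under 0.05 for S133A. In control cells it held 43.3 TPM in S133A-CREB against 11.8 in WT-CREB, 17.1 in S133A-KCREB against 9.70 in KCREB, and 11.8 in S133A/R314A-CREB against 8.60 in R314A-CREB. With TGFβ the same pairs held 17.1 against 11.3, 23.0 against 20.4 and 11.9 against 9.86 TPM. The line with S133A was higher in 6 of 6 pairs, which are 3 pairs of lines each seen under both treatments and so only 3 independent comparisons. The share of all genes higher in 6 of 6 pairs was not counted. The groups overlapped, and the difference was 0.66 ± 0.23 (log2, SE, 95% CI 0.06 to 1.25, limma adjusted p = 0.809). Without the S133A-CREB line, whose control library stands apart, it was 0.396. Leaving out WT-CREB, its partner in the pair, gives the same value by construction of the fit. R314A lines were lower than those with an intact bZIP domain in 4 of 4 pairs (2 pairs of lines under both treatments) (-0.72 ± 0.28, 95% CI -1.45 to 0.01, limma adjusted p = 0.788).

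Nfil3 was also higher in the line with S133A in 6 of 6 pairs, by 0.08 to 0.35 (log2). These again come from 3 pairs of lines, with no count over all genes. The fitted difference of 0.27 ± 0.14 (95% CI -0.08 to 0.62) did not pass (limma adjusted p = 0.809). The share of TPM held by mitochondrially encoded genes moved with this contrast: it was lower in the line with S133A in the same 6 of 6 pairs, at 5.59% to 8.39% against 7.21% to 10.8%. With TPM rescaled without these genes, the S133A difference was 0.24 for Nfil3 and 0.63 for Nr4a2. For the other members the S133A difference lay between -0.27 for Dusp1 and 0.18 for Nr4a1, with intervals that reach at least 0.36 on the positive side. The widest interval was that of Rgs2, -1.06 to 1.25, whose pairs went opposite ways: control levels were 2.59 TPM in WT-CREB and 11.3 in S133A-CREB, but 12.1 in KCREB and 6.90 in S133A-KCREB. Dusp1 had the same split, with 11.0 and 22.4 TPM in the first pair and 20.3 and 11.1 in the second. For both genes the sign of the S133A difference thus depended on the pair.

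For S133A the other lists were likewise without a called gene (limma, adjusted p of at least 0.804 for the genes with the smallest p). Among other targets these were Rgs16, a regulator of G protein signalling (-1.41 ± 0.22), and Klf4, a zinc finger transcription factor (0.81 ± 0.22). Among relatives they were Dusp4 (0.42 ± 0.13) and Gadd45a (0.50 ± 0.22). In the cascade they were the adenylyl cyclase gene Adcy6 (0.40 ± 0.13) and Pkia, an inhibitor of protein kinase A (-0.39 ± 0.18), and among coactivators Crtc2 (-0.36 ± 0.13) and Crebbp, which encodes CBP (0.44 ± 0.20). Lens markers with the smallest p were Cryaa (-1.36 ± 0.38) and Pax6 (-0.70 ± 0.27).

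The next question was whether the TGFβ difference itself depended on the construct. Interaction tests on the differences within the 6 CREB lines called none of the 10 genes for S133A, K or R314A, and 0% of all genes tested (limma). At an unadjusted p under 0.05 there were 1, 3 and 4 of the 10 genes, and 3.52%, 10.8% and 6.41% of all genes tested.

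Nr4a2 had the largest such difference. Its TGFβ difference was 1.00 in KCREB and 0.41 in S133A-KCREB, 0.18 and 0.01 in R314A-CREB and S133A/R314A-CREB, -0.06 in WT-CREB and -1.30 in S133A-CREB. In Vector it was 0.46. K thus differed from intact by 1.38 ± 0.28 (log2, SE, 95% CI 0.69 to 2.07, limma adjusted p = 0.326), R314A by 0.77 ± 0.28 (95% CI 0.08 to 1.46, adjusted p = 0.769) and S133A by -0.66 ± 0.22 (95% CI -1.22 to -0.10, adjusted p = 0.999). Nr4a3 showed the same signs among CREB lines, with 0.37 and 0.24 in the K lines, 0.29 and 0.05 in the R314A lines and -0.49 and -0.59 in WT-CREB and S133A-CREB. In Vector it was -0.62. Its interaction was 0.84 ± 0.27 for K (limma adjusted p = 0.415) and 0.71 ± 0.27 for R314A (adjusted p = 0.769).

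The rise of Nfil3 was smallest in the 2 lines with an intact bZIP domain, at 0.87 in WT-CREB and 0.94 in S133A-CREB, against 1.25 to 1.67 in the other 4 CREB lines and 1.502 in Vector. Its interaction was 0.67 ± 0.13 for R314A (95% CI 0.33 to 1.007, limma adjusted p = 0.639) and 0.37 ± 0.13 for K (95% CI 0.03 to 0.71, adjusted p = 0.443). Gadd45b had the same order, with 0.52 and 0.64 in WT-CREB and S133A-CREB and 0.72 to 1.07 in the other CREB lines, and an interaction of 0.37 ± 0.14 for R314A (limma adjusted p = 0.769). S133A made little difference to either rise, with -0.06 ± 0.11 for Nfil3 (95% CI -0.34 to 0.22) and 0.02 ± 0.12 for Gadd45b (95% CI -0.28 to 0.31).

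Each CREB line was last set beside Vector under the same treatment, where 1 library stands on each side and no test is possible. All 6 comparisons of a treatment share its Vector library. Genes are counted past 2-fold on the log2(TPM + 1) scale where the pair averages 5 TPM or more, which 9 of the 10 genes reached in control and 7 with TGFβ. In control cells, WT-CREB had Sik1 higher and Pde4b and Rgs2 lower (10.2% of all genes past 2-fold in this pair). S133A-CREB had Sik1 and Nr4a2 higher (7.72% of all genes). Pde4b was the only member past 2-fold in R314A-CREB (3.44%) and S133A-KCREB (5.84%), lower in both, and S133A/R314A-CREB had Pde4b and Dusp1 lower (5.03%). None was past 2-fold in KCREB (2.52%).

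The TGFβ libraries were counted in the same way, but no pair averaged 5 TPM for Pde4b, Rgs2 or Nr4a3, so counts are not compared between treatments. Below that level, Pde4b differed from Vector by -1.48 in R314A-CREB and -1.39 in S133A/R314A-CREB. Nr4a2 was lower in WT-CREB (7.11% of all genes past 2-fold), R314A-CREB (3.43%) and S133A/R314A-CREB (3.99%), and Sik1 was higher in S133A-CREB (6.89%). None was past 2-fold in KCREB (2.41%) or S133A-KCREB (4.99%). Vector itself lay at an end of the range for some genes: in control cells all 6 CREB lines were above it for Nfil3, by 0.34 to 0.78 (log2), and below it for Nr4a3, Pde4b and Pde4d. For Nr4a3 the differences were -0.89 to -0.42, at levels under 5 TPM.

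**Figure D5:**
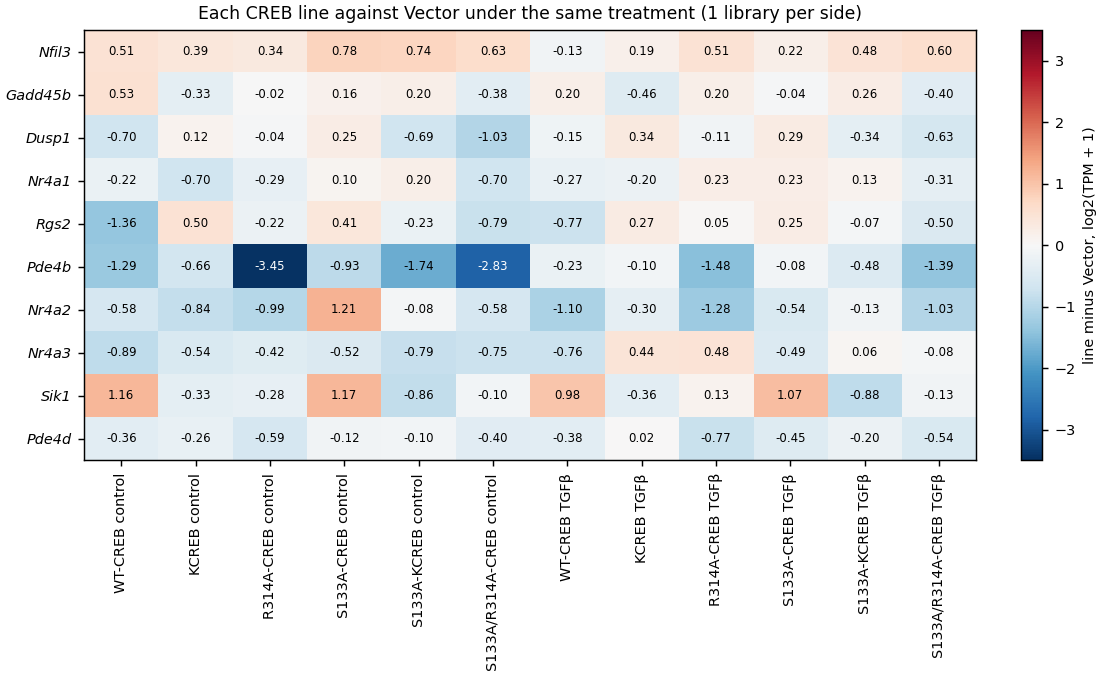
Difference from Vector in log2(TPM + 1) (colour and printed value) of the 10 genes (rows) in each CREB line and treatment (columns), with 1 library per side. The darkest cells are Pde4b in R314A-CREB (-3.45) and S133A/R314A-CREB (-2.83) control cells, and Sik1 is higher than Vector in WT-CREB and S133A-CREB under both treatments (0.98 to 1.17).

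The genes most like each member over the 14 libraries were found by Pearson's r of log2(TPM + 1) after the mean of each treatment was taken off, so that r describes the pattern across lines. The search took protein-coding genes that averaged 5 TPM or more and passed over predicted genes. The 2 libraries of a line are not independent, and no test was made. Sik1 was closest to Nfkb1 (r = 0.970) and Inhbb (0.950), Rgs2 to Apbb1 (0.954) and Thtpa (0.941), Gadd45b to Socs6 (0.951) and Mapre1 (0.909), and Dusp1 to Oaz1 (0.946) and Ddr1 (0.930). Pde4d was closest to Ggcx (0.921) and Pcmtd1 (0.904), Pde4b to Fndc1 (0.907) and Tab2 (0.893), and Nr4a1 to Txnrd3 (0.882) and Sertad1 (0.859). Nfil3 was closest to Serf1 (0.877) and Zfp978 (0.840), Nr4a3 to Trp53 (0.875) and Gps2 (0.849), and Nr4a2 to Mkx (0.833) and Lmcd1 (0.820). None of these closest genes was itself a member, but Nr4a3 and Pde4b, with means of 1.41 and 2.85 TPM, were outside the search.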

How the data were processed

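Per the submitters' processing notes, STAR 2.7.6a, StringTie 2.0.4, edgeR and the build GRCm39 were used, with no roles given. Per the file headers, the deposited tables give TPM, FPKM and coverage for every gene. Read counts are not given, so the depth behind single values is unknown and no count model was used. Values that share a gene identifier were summed, and limma 3.58.1 (R 4.3.3) was run on log2(TPM + 1) with an intensity trend, two-sided tests and Benjamini-Hochberg adjustment over all 12927 genes that averaged 1 TPM or more (threshold 0.05). A line's control and TGFβ libraries were paired by the line. Checked across genes, deviations from treatment means gave an r of 0.614 to 0.845 within a line and at most 0.275 between lines. The 10 genes and the lists were chosen with earlier results of these data known. From each other list, genes were named by the smallest p: up to 3 for TGFβ and up to 2 for S133A. Macrophage, endothelial and melanocyte markers were also listed: 4 of 8, 0 of 6 and 2 of 6 reached a mean of 1 TPM. The fits were tested on simulated data with planted changes. The TGFβ fit recovered 94.03% of 2-fold changes. The S133A, K and R314A fits recovered 0%, also at 4-fold. The S133A, K and R314A interaction fits recovered 26.87%, 1.49% and 2.99% at 2-fold. Promoter windows are RefSeq's on GRCm38.p6, and gene positions are those of the files on GRCm39. The alternatives were other pseudocounts, filters, scalings, FPKM, no intensity trend, no block, an exact Wilcoxon signed-rank test, subsets of libraries, leaving out each line and removing mitochondrially encoded genes before rescaling TPM, which was chosen after seeing the data.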

Additional observations from a re-analysis of the deposited data

Results flagged for a closer look

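Of 30 sets of 7 values examined (control levels, TGFβ levels and differences within lines for each gene), 2 held a value far from the rest by Dixon's test, where chance gives about 1 in 20. Nr4a2 stood at 43.3 TPM in the control library of S133A-CREB, with the next library at 18.1 TPM. The TGFβ difference of Sik1 in R314A-CREB was 0.32 (log2), with the next line at -0.09. The TGFβ differences of Nr4a2 and Nr4a3 lay below 0 in both lines with an intact bZIP domain and above 0 in the 4 lines with K or R314A, several of them close to 0 (-0.06 in WT-CREB and 0.01 in S133A/R314A-CREB for Nr4a2). The interaction was 1.38 for K and 0.77 for R314A in Nr4a2, and 0.84 for K and 0.71 for R314A in Nr4a3, and none of the 4 passed in limma (adjusted p of 0.326, 0.769, 0.415 and 0.769).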

How the results depend on the processing

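Nfil3 and Gadd45b were called higher with TGFβ in all 19 alternatives. Nr4a1, Rgs2 and Pde4b kept their direction in all alternatives run for them and lost the call with no replicate block alone, where 2 members were called higher and 0 lower, and 645 and 519 of all genes. Dusp1 kept its direction and lost the call in 12, among them TPM rescaled without mitochondrially encoded genes (adjusted p = 0.0584), an alternative chosen after the data were seen. The number of members called for S133A, K, R314A and the interactions was 0 under each alternative, except for Sik1 in the K effect fitted on 12 libraries with a random line effect (1 lower). That fit counts both libraries of a line as partly independent. It called 27 genes higher and 1 lower for S133A, 41 and 100 for K, and 3 and 3 for R314A. A separate fit of S133A without the bZIP term called 4 genes higher. Leaving out each line in turn, K called 0 to 10 genes higher and 0 to 16 lower, R314A 0 to 12 and 0 to 9, the K interaction 0 to 8 and 0 to 7, and the R314A interaction 0 to 1 higher. Differences that were not called changed sign in some fits. Leaving out lines gave, for S133A, Gadd45b -0.39 to 0.16, Nr4a1 -0.0324 to 0.51, Nr4a3 -0.38 to 0.0061, Pde4b -0.24 to 0.30, Rgs2 -0.55 to 0.43 and Sik1 -0.28 to 0.0052. It gave, for K, Dusp1 -0.79 to 0.66, Gadd45b -0.80 to 0.21, Nr4a1 -0.42 to 0.22, Nr4a2 -0.48 to 0.30, Pde4b -0.63 to 0.41 and Rgs2 -0.48 to 1.46. It gave, for R314A, Dusp1 -1.10 to 0.35, Nr4a1 -0.72 to 0.26 and Rgs2 -0.97 to 0.97. For TGFβ it gave Nr4a2 -0.05 to 0.33 and Pde4d -0.0635 to 0.0385, and for the S133A interaction Gadd45b -0.0645 to 0.15 and Nfil3 -0.13 to 0.01. Quantile normalization gave Pde4d 0.0574 for TGFβ, and Pde4b 0.038 and Dusp1 0.0035 for K. A pseudocount of 0.1 gave Pde4b 0.17 for S133A, and Rgs2 for R314A was -0.0357 at a pseudocount of 5, -0.0143 in FPKM, -0.0065 in TPM without mitochondrially encoded genes and -0.0225 in control libraries alone. Control libraries alone gave Nfil3 -0.0793 for K and -0.16 for R314A, and TGFβ libraries alone gave Pde4d -0.0189 for S133A and Nr4a2 0.605 for K. Against Vector, members past 2-fold numbered 2 in R314A-CREB control, 2 in WT-CREB TGFβ and 1 in S133A-KCREB TGFβ at a pseudocount of 0.1. At a pseudocount of 5 they numbered 0 in WT-CREB control, 1 in S133A-CREB control, 1 in S133A/R314A-CREB control and 0 in the TGFβ libraries of WT-CREB, S133A-CREB and S133A/R314A-CREB. Median-of-ratios scaling gave 2 in R314A-CREB control and 0 in S133A/R314A-CREB TGFβ. The causes were not tested. A filter at 5 TPM leaves out Nr4a3 and Pde4b, so these have no value there. Read counts are not given, so how far depth limits Nr4a3 and the lowest Pde4b values is unknown.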
